A study of Mus musculus with 82 samples.

Results

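The response of transferred OT-I and OT-II T cells to plain ovalbumin (OVA) was compared in 19 RNA-seq libraries, chosen from the 82 libraries of the series by their labels: the recipients of the prophylactic experiment given plain OVA or saline. The groups were OT-I cells after OVA (5 libraries), OT-I cells after saline (5), OT-II cells after OVA (4) and OT-II cells after saline (5). All recipients were C57BL/6 mice that carried both transferred cell types. They received 5 µg of OVA, or saline, 1 day after the transfer, and spleen and lymph nodes were taken 4 days after that. Each library was made from sorted cells of 3 pooled mice, and the labels name 2 batches. The question was which genes responded to OVA alike in the CD8 and CD4 cells and for which genes the response itself differed.

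OT-I cells are CD8 T cells with a transgenic receptor for an OVA peptide on MHC class I. The receptor of OT-II cells, which belong to the CD4 lineage, recognizes another OVA peptide on MHC class II. Soluble OVA without adjuvant reaches OT-I cells through cross-presentation and OT-II cells through the class II pathway. In either lineage, antigen recognition is followed by division, by exchange of homing receptors and by inhibitory receptors such as PD-1 and LAG-3. Integrin chains pair before they reach the cell surface, so the alpha 4 chain (Itga4) and the beta 1 chain (Itgb1) together form VLA-4, the receptor for VCAM-1 and fibronectin. The gates of the sort are not given in the labels used here.

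Totals of estimated counts were 33.5 to 63.9 M per library (M, mega) in OT-I cells after OVA and 53.9 to 68.2 M after saline, and 33.2 to 62.1 M in OT-II cells after OVA and 32.9 to 57.4 M after saline. Cd8a, a chain of the CD8 co-receptor, was at 777 to 1140 CPM (counts scaled to the normalized library size) in OT-I cells after OVA and at 1.06 to 115 CPM in OT-II cells after OVA. Cd4 was at 0.343 to 162 CPM in OT-I cells after OVA and at 243 to 878 CPM in OT-II cells after OVA, so each label carried the co-receptor of its lineage. However, 5 libraries stood apart, with the B cell gene Cd79a, or the co-receptor gene of the other lineage, at 100 CPM or more. They were OT-I OVA batch 1 replicate 1 (Cd4 162 CPM), OT-I OVA batch 2 replicate 2 (Cd79a 100 CPM), OT-I saline batch 2 replicate 1 (Cd79a 314 CPM), OT-II OVA batch 2 replicate 2 (Cd79a 1360 CPM, Cd8a 115 CPM) and OT-II saline batch 2 replicate 1 (Cd79a 165 CPM). The summed level of 18 B cell markers ran from 256 to 2300 CPM in OT-I cells after OVA, from 251 to 7310 CPM in OT-I cells after saline, from 389 to 31900 CPM in OT-II cells after OVA and from 296 to 3390 CPM in OT-II cells after saline. Results that rest on these libraries are also given without them. The libraries left out include a batch 2 library of every group, so the fits without them hold fewer libraries and rest mostly on batch 1. In such bulk libraries, fewer cells of a type and less RNA per cell cannot be told apart.

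More genes passed the threshold after plain OVA in OT-I than in OT-II cells, and few passed the test of the difference between the cell types. In OT-I cells 404 of 14472 tested genes changed (2.79%), 298 of them higher after OVA (2.06%) and 106 lower (0.732%). In OT-II cells 52 genes changed (0.359%), 45 higher (0.311%) and 7 lower (0.0484%). Of these, 31 genes (0.214% of those tested) changed in both cell types in the same direction, which is 7.67% of the OT-I list and 59.6% of the OT-II list, and none in opposite directions. The difference of responses, OVA minus saline in OT-I minus OVA minus saline in OT-II, was called for 6 genes (0.0415%), all with the higher response in OT-I cells: Itgb1, Nrp1, Itga4, Tmem154, Ptms and Lag3. Over the 19 libraries no gene was called in OT-II cells together with the difference by edgeR or by limma voom, and 4 were by DESeq2; edgeR called 1 without the libraries that stood apart and 1 in batch 1 alone. At an unadjusted p under 0.05 the difference had 924 of the 14472 tested genes, 16 of them among the 45 higher and 2 among the 7 lower in OT-II cells. Those 52 genes were chosen by their OT-II response, which is itself part of the difference. The 16 and 2 therefore cannot show whether any response was particular to OT-II cells. The mean of both responses was called for 686 genes (4.74%), 467 higher (3.23%) and 219 lower (1.51%) after OVA, of which 337 were called in neither cell type alone. Calls were made with edgeR's quasi-likelihood test at a Benjamini-Hochberg adjusted p under 0.05.

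**Figure D1:**
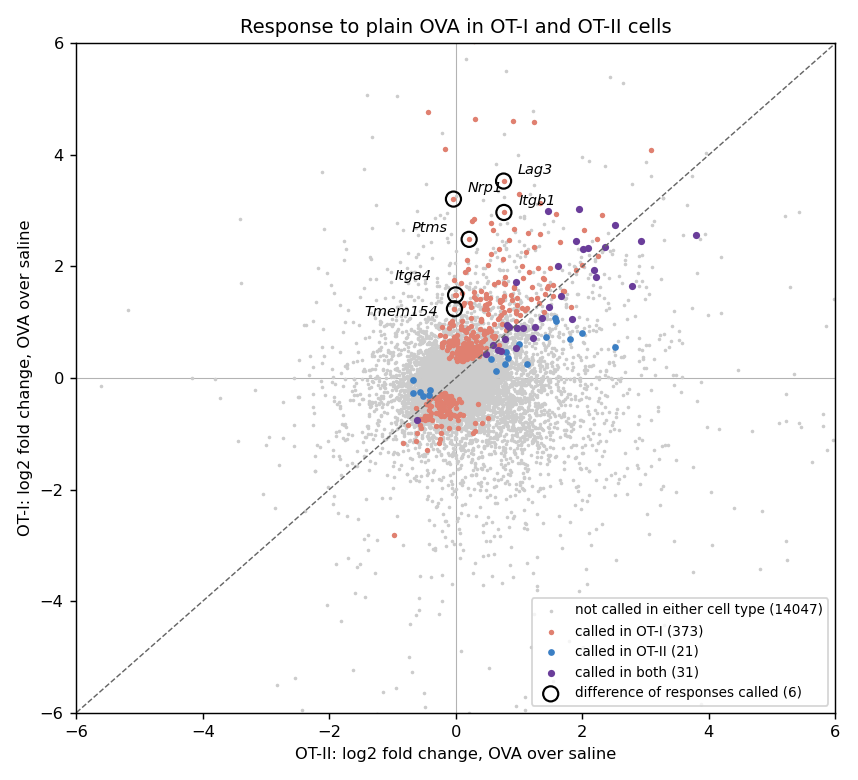
Log2 fold change after OVA over saline in OT-I cells (vertical axis) against that in OT-II cells (horizontal axis), 1 point per gene, coloured by where the gene was called; 34 of 14472 genes lie outside the axes. The 6 circled genes, called for the difference, lie above the dashed line of equal responses, and the 31 genes called in both cell types lie around it.

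The genes that rose in OT-I cells leaned upward in OT-II cells as well. Of the 298, 262 had a positive log2 fold change in OT-II cells, where 7317 of all 14472 tested genes did, and 151 had an unadjusted p under 0.05 there, against 1501 of all tested genes. Their median log2 fold change was 0.90 in OT-I cells, where they were chosen, and 0.34 in OT-II cells. Conversely, the 45 genes that rose in OT-II cells had a median of 0.91 in OT-I cells and 1.46 in OT-II cells, and 43 of them were positive in OT-I cells. The median standard error over all tested genes was 0.194 for the OT-I response, 0.206 for the OT-II response and 0.283 for their difference on the log2 scale. Libraries of the 2 cell types may share mice, since the recipients carried both.

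Counts of calls moved with single libraries. Leaving out OT-II OVA batch 2 replicate 2, the library with the most B cell transcripts, gave 640 genes in OT-I cells and 13 for the difference. Leaving out all 5 libraries that stood apart gave 581 genes in OT-I cells (4.04% of 14378 tested), 410 higher (2.85%) and 171 lower (1.19%). It gave 60 in OT-II cells (0.417%), 55 higher (0.383%) and 5 lower (0.0348%), and 15 for the difference (0.104%), 14 with the higher response in OT-I cells (0.0974%) and 1 with the lower (0.00696%). The mean response then had 762 genes (5.3%), 528 higher (3.67%) and 234 lower (1.63%). Leaving out OT-I OVA batch 1 replicate 2 gave 191 genes in OT-I cells, and leaving out OT-II saline batch 1 replicate 1 or batch 2 replicate 1 gave 111 or 23 in OT-II cells. Fitting each cell type on its own gave 808 genes in OT-I cells and 3 in OT-II cells, and batch 2 alone gave 1 and 0. DESeq2 called 54 genes for the difference, 63% of them with the higher response in OT-I cells, and all 6 genes above were among them.

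Both chains of VLA-4 were among the genes called for the difference, with the higher response in OT-I cells. Itgb1 was at 553, 942, 1450, 1120 and 1310 CPM in OT-I cells after OVA, against 125, 112, 121, 166 and 170 CPM after saline. OT-II cells had 233, 233, 276 and 317 CPM after OVA, against 146, 130, 168, 150 and 171 CPM after saline. All OVA libraries lay above all saline libraries in either cell type, but the OT-I levels after OVA also lay above every OT-II level. Itgb1 rose 7.82-fold in OT-I cells (95% confidence interval 5.98 to 10.2; adjusted p = 1.6e-07). In OT-II cells the ratio was 1.69 (1.3 to 2.21; adjusted p = 0.0919), and the OT-I ratio was 4.62 times that of OT-II cells (3.18 to 6.72; log2 difference 2.21 ± 0.26 SE, adjusted p = 0.00194). The difference was called without each library in turn, and without the 5 libraries that stood apart (2.49, adjusted p = 0.000432). Within batch 1 alone it was 2.41 (adjusted p = 0.0731) and within batch 2 alone 1.94 (adjusted p = 0.813), where each group had 2 libraries.

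Itga4 was at 265, 388, 334, 428 and 508 CPM in OT-I cells after OVA, against 99, 122, 127, 172 and 167 CPM after saline. The OT-II libraries were at 155, 173, 192 and 255 CPM after OVA, against 122, 198, 165, 242 and 216 CPM after saline. The OT-I groups did not overlap and the OT-II groups did. The ratio was 2.81 in OT-I cells (2.32 to 3.41; adjusted p = 1.25e-05) and 0.997 in OT-II cells (0.816 to 1.22; adjusted p = 0.999), and the log2 difference was 1.49 ± 0.19 SE (adjusted p = 0.00236). It was 1.5 within batch 1 and 1.47 within batch 2, neither of them called (adjusted p = 0.0864 and 0.868). Adding the 10 pGal libraries of the same experiment to the fit left Itga4 at 1.47 with an adjusted p of 0.125.

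The promoters of both integrin genes are shown because the 2 genes moved together in OT-I cells. They are the 250 bases before and 50 after the annotated start, from RefSeq on GRCm38.p6, at chr8:128685404-128685703 on the plus strand and chr2:79255176-79255475 on the plus strand. Capitals mark the NFAT core GGAAA (or its reverse complement TTTCC) in Itgb1 and the T-box element TCACACC (reverse complement GGTGTGA) in Itga4.
Itgb1: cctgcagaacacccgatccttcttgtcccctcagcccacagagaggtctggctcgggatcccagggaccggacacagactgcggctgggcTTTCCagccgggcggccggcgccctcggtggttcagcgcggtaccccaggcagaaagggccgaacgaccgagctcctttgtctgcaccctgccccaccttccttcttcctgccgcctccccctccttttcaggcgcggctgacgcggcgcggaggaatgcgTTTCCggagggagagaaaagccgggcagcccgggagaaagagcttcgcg
Itga4: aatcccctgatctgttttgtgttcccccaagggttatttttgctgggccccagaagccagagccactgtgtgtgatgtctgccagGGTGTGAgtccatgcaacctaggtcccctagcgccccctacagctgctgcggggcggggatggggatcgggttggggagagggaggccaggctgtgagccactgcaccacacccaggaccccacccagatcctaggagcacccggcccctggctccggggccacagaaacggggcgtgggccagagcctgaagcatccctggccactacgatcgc
The Itgb1 window held the NFAT core at 160 bases before and 2 bases after the start, and no T-box element. The Itga4 window held 1 T-box element, 165 bases before the start, and no NFAT core. The AP-1 site TGANTCA was in neither. Of 11294 tested genes with a promoter in the table, 64% held the NFAT core, 4.29% the T-box element and 6.74% the AP-1 site on either strand, so the NFAT letters are common. Of the 6 genes called for the difference, 5 had a promoter in the table, and the NFAT core was in 2 of them, the T-box element in 1 and the AP-1 site in 1.

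Nrp1 encodes neuropilin-1, a co-receptor for semaphorins and VEGF that in CD4 cells marks thymus-derived regulatory T cells. It was at 22.2, 26.5, 62.2, 63.9 and 60.8 CPM in OT-I cells after OVA, against 3.33, 2.93, 3.23, 13.2 and 5.78 CPM after saline. Levels in OT-II cells were 31.3, 27.2, 24.4 and 28.0 CPM after OVA, against 23.0, 21.8, 31.3, 31.3 and 35.1 CPM after saline. The low level was thus that of OT-I cells after saline, and after OVA the OT-I levels reached or passed those of OT-II cells. The ratio was 9.24 in OT-I cells (6.01 to 14.2; adjusted p = 1.61e-05) and 0.974 in OT-II cells (0.643 to 1.48; adjusted p = 0.982), and the log2 difference was 3.25 ± 0.41 SE (adjusted p = 0.00236). It was 3.35 within batch 1 (adjusted p = 0.0377) and 3.02 within batch 2 (adjusted p = 0.868). Nrp1 (chr8:128358604-128503363) and Itgb1 (chr8:128685654-128733200) lie on the plus strand of chromosome 8 with 182 kb between them, in GENCODE M21 on GRCm38.

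Tmem154, a transmembrane protein gene, followed the same pattern at a smaller size. It was at 55.1, 63.5, 65.2, 57.5 and 79.2 CPM in OT-I cells after OVA, against 22.7, 18.6, 28.4, 34.1 and 34.0 CPM after saline. The values of OT-II cells were 102, 98.5, 101 and 74.4 CPM after OVA, against 101, 86.1, 87.9, 102 and 99.3 CPM after saline. OT-I levels after OVA thus came nearer to those of OT-II cells and stayed below them, except that OT-I OVA batch 2 replicate 2 at 79.2 CPM was above OT-II OVA batch 2 replicate 2 at 74.4 CPM. The log2 difference was 1.26 ± 0.19 SE (adjusted p = 0.0178). The call was lost without the 5 libraries that stood apart (1.17, adjusted p = 0.0677) and in 5 of the 19 fits that left out 1 library, where adjusted p reached 0.064: OT-I OVA batch 1 replicate 2 or 3, OT-I saline batch 1 replicate 1, OT-II OVA batch 1 replicate 3 or OT-II saline batch 2 replicate 1.

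Lag3 encodes an inhibitory receptor that binds MHC class II, and Ptms encodes parathymosin, a small acidic nuclear protein. The 2 genes are neighbours on chromosome 6, on the minus strand with 1975 bases between them. Lag3 was at 5.47, 5.21, 8.35, 7.93 and 5.68 CPM in OT-I cells after OVA, against 0.473, 0.531, 0.357, 0.965 and 0.575 CPM after saline. Among OT-II libraries it was at 1.36, 1.24, 1.58 and 1.21 CPM after OVA, against 1.18, 0.85, 1.21, 0.635 and 0.455 CPM after saline. Every OT-I library after OVA was above every other library of the comparison. The ratio was 11.6 in OT-I cells (7.02 to 19.0; adjusted p = 2.74e-05) and 1.69 in OT-II cells (1.02 to 2.78; adjusted p = 0.452), with a log2 difference of 2.78 ± 0.47 SE (adjusted p = 0.0481). Ptms was at 5.78, 8.87, 5.07, 4.12 and 3.01 CPM in OT-I cells after OVA, against 1.06, 0.811, 1.18, 0.905 and 0.664 CPM after saline. In OT-II cells it was at 5.97, 6.28, 2.87 and 2.74 CPM after OVA, against 5.15, 4.33, 6.61, 3.01 and 1.76 CPM after saline. All OT-I saline libraries of Ptms were below all other libraries. The log2 difference of Ptms was 2.28 ± 0.38 SE (adjusted p = 0.0416). Neither gene reached a group mean of 10 CPM, and Ptms was named after its values were seen. Both calls sat close to the threshold: leaving out 1 library ended the call in 14 of 19 fits for Lag3 (adjusted p up to 0.238) and in 15 of 19 for Ptms (up to 0.201), and leaving out the 5 libraries that stood apart gave an adjusted p of 0.0641 for each. For both genes the call was kept without OT-I OVA batch 2 replicate 2, OT-I saline batch 2 replicate 1, OT-II OVA batch 2 replicate 2 or OT-II saline batch 2 replicate 2, and for Lag3 also without OT-II OVA batch 2 replicate 1.

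**Figure D2:**
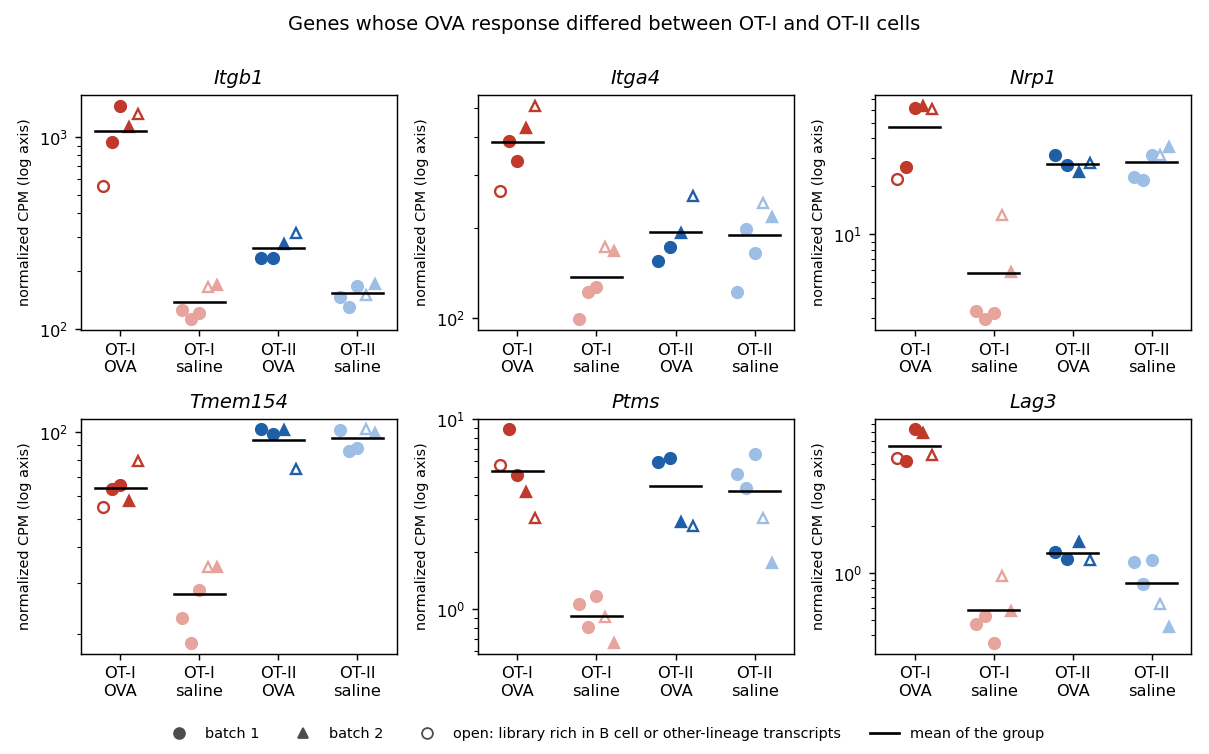
Normalized CPM on a log axis for the 6 genes called for the difference, 1 point per library, with circles for batch 1, triangles for batch 2, open symbols for the 5 libraries that stood apart and a line at each group's mean. OT-I cells after OVA lie above OT-I cells after saline in every panel, while the OT-II groups overlap in all panels but Itgb1.

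When the fit was given a term for each pool of mice, with same-numbered OT-I and OT-II libraries taken as 1 pool, the differences of Itgb1 (2.33, adjusted p = 0.0021), Itga4 (1.56, 0.0021) and Nrp1 (3.33, 0.0184) were called and those of Tmem154, Ptms and Lag3 were not (adjusted p = 0.167, 0.277 and 0.364). The labels do not state that equal numbers mark the same mice.

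Without the 5 libraries that stood apart, the 15 genes called for the difference included 3 of the 6, Itgb1, Nrp1 and Itga4. The others with a higher response in OT-I cells, named here after their values were seen, were Rnf216, Klrk1, Ikzf3, Tspan32, Phf11b, Cd44, Ccl5, Ctla2b, S100a4, Pdcd1 and Sh2d1a. Klrk1 encodes the activating receptor NKG2D, Ccl5 a chemokine of effector cells and Sh2d1a the adaptor SAP. Their log2 differences ranged from 0.85 for Phf11b to 3.39 for S100a4. The gene with the lower response in OT-I cells was Il23r, a subunit of the IL-23 receptor.

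Some inhibitory receptor genes rose in OT-I cells. Of 22 genes in that list, 4 were higher in OT-I cells after OVA (Pdcd1, Ctla4, Lag3 and Cd200), none changed in OT-II cells, and Lag3 was called for the difference. The list's median log2 fold change was 0.45 in OT-I cells and 0.56 in OT-II cells, beside -0.03 and 0.00273 over all tested genes, and without the libraries that stood apart it was 0.77 in OT-I cells and 0.33 in OT-II cells, with 8 genes higher in OT-I cells and 1 in OT-II cells. Pdcd1, which encodes PD-1, was at 20.1, 22.1, 36.3, 36.4 and 37.4 CPM in OT-I cells after OVA, against 3.90, 5.07, 3.32, 5.14 and 4.49 CPM after saline. OT-II cells had 24.3, 27.2, 41.6 and 23.6 CPM after OVA, against 29.0, 13.8, 12.3, 12.0 and 29.7 CPM after saline. OVA brought Pdcd1 in OT-I cells to the range of OT-II cells, whose groups overlapped. Its log2 difference of 2.22 ± 0.40 SE did not pass (adjusted p = 0.0843), and passed without the 5 libraries (2.40, adjusted p = 0.0411). Ctla4, which encodes the inhibitory receptor CTLA-4, averaged 53.6 ± 24.4 CPM in OT-I cells after OVA and 8.73 ± 2.08 CPM after saline (SD, n = 5 each), and 46.4 ± 18.7 CPM in OT-II cells after OVA (n = 4) and 18.6 ± 4.36 CPM after saline (n = 5). It rose in OT-I cells (log2 2.58, adjusted p = 0.000143), its OT-II value was 1.33 (adjusted p = 0.0841) and the difference was 1.25 (95% interval 0.35 to 2.15, adjusted p = 0.575).

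Genes that mark antigen-experienced cells were called in OT-I cells and not in OT-II cells, though the difference passed for Itgb1 only, or for Itgb1, Cd44 and S100a4 without the libraries that stood apart. In that list 10 of 20 genes were higher in OT-I cells and none changed in OT-II cells, and Itgb1 was called for the difference; the medians were 0.59 in OT-I cells and 0.23 in OT-II cells. Cd44, the hyaluronan receptor used to identify such cells, averaged 119 ± 16.2 CPM in OT-I cells after OVA and 45.0 ± 11.9 CPM after saline (SD, n = 5 each), and 113 ± 25.2 CPM in OT-II cells after OVA (n = 4) and 66.9 ± 13.0 CPM after saline (n = 5). In OT-II cells too, each OVA library was above each saline library. Its log2 fold change was 1.4 in OT-I cells (adjusted p = 0.000182) and 0.70 in OT-II cells (adjusted p = 0.113). S100a4, S100a6, Anxa2 and Lgals1, named after their values were seen, encode calcium-binding proteins, annexin A2 and galectin-1, and rose in OT-I cells by 2.82, 2.48, 2.27 and 1.55 on the log2 scale. Their values in OT-II cells were 0.26, 0.84, 1.11 and 0.29, none of them called.

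Some cytotoxic genes rose in OT-I cells. Of 30 genes, 4 were higher in OT-I cells (Gzmk, Ifng, Serpinb6b and Tbx21) and 1 in OT-II cells (Eomes), and none was called for the difference. Without the libraries that stood apart, 10 were higher in OT-I cells and 2 in OT-II cells, 2 were called for the difference, and the list's median was 0.83 in OT-I cells and -0.20 in OT-II cells, beside 0.56 and 0.66 over all 19 libraries. Gzmk, which encodes granzyme K, was at 12.7, 57.9, 17.3, 13.1 and 32.0 CPM in OT-I cells after OVA, against 0.962, 0.59, 0.657, 0.89 and 3.07 CPM after saline. The OT-II libraries were at 3.61, 0.774, 2.87 and 2.21 CPM after OVA, against 0.649, 0.621, 1.60, 0.663 and 1.46 CPM after saline. The OT-I groups were far apart while the OT-II groups overlapped, but the difference had a wide interval (log2 3.35, 95% interval 1.60 to 5.11, adjusted p = 0.307). Zbtb32, which encodes a zinc finger repressor of activated lymphocytes, averaged 46.7 ± 14.5 CPM in OT-I cells after OVA and 2.40 ± 1.99 CPM after saline (SD, n = 5 each). In OT-II cells it averaged 4.22 ± 2.23 CPM after OVA (n = 4) and 2.10 ± 1.34 CPM after saline (n = 5). It rose in OT-I cells (log2 4.61, adjusted p = 0.000143), and its difference of 3.70 did not pass (95% interval 2.15 to 5.26, adjusted p = 0.15). Without OT-II OVA batch 2 replicate 2 the difference was 4.05 (adjusted p = 0.0469), the only call among 19 fits that left out 1 library. Without the 5 libraries that stood apart it was 4.37 and not called (adjusted p = 0.0598). Of 30 alternative fits 3 called it. Gzmb, which encodes granzyme B, was at 47.3, 143, 43.0, 34.7 and 54.3 CPM in OT-I cells after OVA, against 7.81, 6.89, 5.54, 14.9 and 9.08 CPM after saline, with no overlap. The OT-I ratio was 7.35 (2.15 to 25.1; adjusted p = 0.0835). In OT-II cells Gzmb was at 2.31, 0.792, 1.17 and 33.7 CPM after OVA, against 3.67, 2.08, 1.47, 3.95 and 1.00 CPM after saline (adjusted p = 0.792). The 33.7 CPM came from batch 2 replicate 2, the library rich in B cell and NK cell transcripts. Without that library the OT-I response was called (log2 2.89, adjusted p = 0.00174), and the difference was 3.65 (adjusted p = 0.0909), against 1.86 with it (adjusted p = 0.843).

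Of the T-box factors, Tbx21 was called in OT-I cells and Eomes in OT-II cells over the 19 libraries, and neither difference was called. Tbx21, which encodes T-bet, was at 134, 257, 211, 198 and 197 CPM in OT-I cells after OVA, against 41.0, 40.9, 50.5, 60.3 and 65.0 CPM after saline. Levels in OT-II cells were 16.6, 15.6, 16.5 and 71.9 CPM after OVA, against 9.66, 7.04, 9.23, 11.0 and 8.55 CPM after saline. It rose in OT-I cells (log2 1.98, adjusted p = 0.00258), and its OT-II value of 1.49 was not called (adjusted p = 0.0854), nor was its difference of 0.49 (adjusted p = 0.874). Without OT-II OVA batch 2 replicate 2, the library at 71.9 CPM, the OT-II value was 0.85 (adjusted p = 0.0568) and the difference 1.13 (adjusted p = 0.144). Without the 5 libraries that stood apart they were 0.91 (adjusted p = 0.0398) and 1.26 (adjusted p = 0.0653). Eomes, which encodes eomesodermin, was at 12.4, 12.6, 18.4 and 30.2 CPM in OT-II cells after OVA, against 5.48, 2.44, 2.62, 6.33 and 4.25 CPM after saline, with no overlap. It rose in OT-II cells (log2 2.0 ± 0.24 SE, adjusted p = 0.00187). In OT-I cells Eomes averaged 125 ± 29.3 CPM after OVA and 71.5 ± 10.1 CPM after saline (log2 0.81, adjusted p = 0.0562), a response that was called without OT-II OVA batch 2 replicate 2 (0.82, adjusted p = 0.0247). The difference of -1.19 was not called (95% interval -1.87 to -0.51, adjusted p = 0.407).

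**Figure D3:**
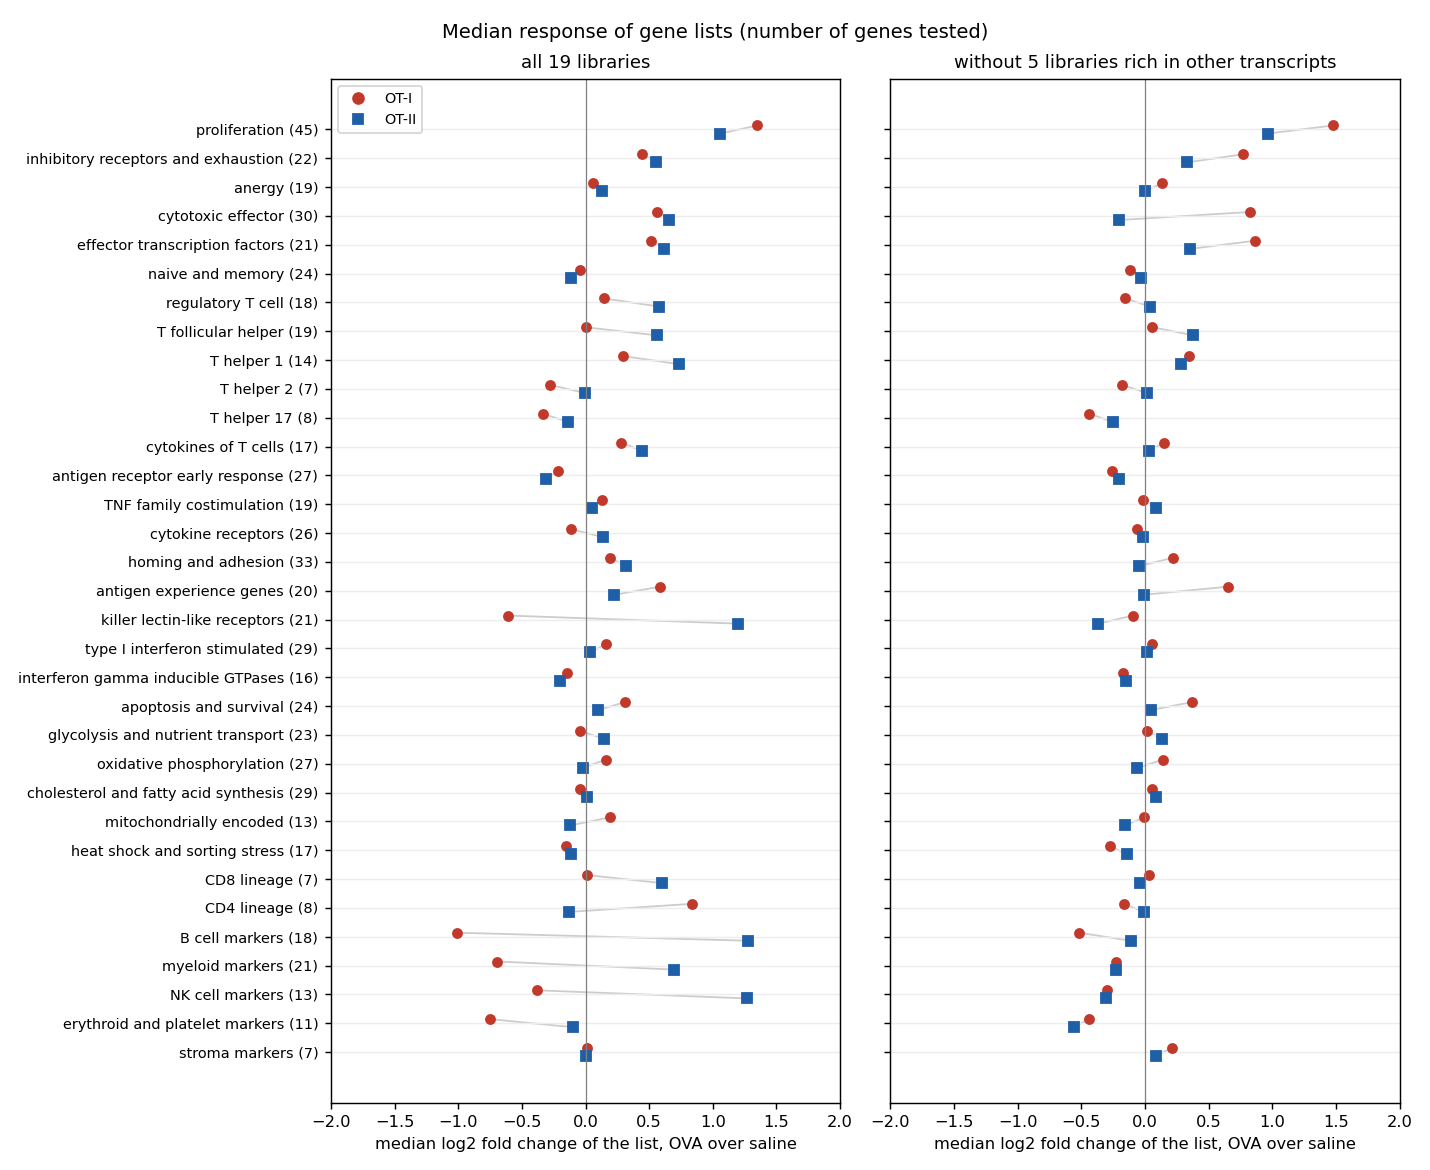
Median log2 fold change after OVA over saline for 33 lists of genes, for OT-I cells (red circles) and OT-II cells (blue squares). All 19 libraries are on the left, and those without the 5 libraries that stood apart are on the right. The number of genes tested is in brackets. Proliferation lies at 1.35 and 1.06 on the left, and the B cell list at -1.01 and 1.28 on the left comes to -0.52 and -0.11 on the right.

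Of the 33 lists, that of cell division genes held the most genes called in both cell types. Of 45 proliferation genes, 20 were higher in OT-I cells and 6 in OT-II cells, none was lower, and none was called for the difference. The list's median log2 fold change was 1.35 in OT-I cells and 1.06 in OT-II cells, and the median difference was 0.04. The 6 genes that rose in OT-II cells, Top2a, Mki67, Ccnb1, Ccnb2, Cenpe and Uhrf1, were all called in OT-I cells too. The OVA and saline groups of Uhrf1 overlapped in both cell types, and its OT-I call was lost in 7 of 19 fits that left out 1 library (adjusted p up to 0.108). The OT-II call of Cenpe was lost without OT-II saline batch 2 replicate 1 or 2. The 6 genes encode a topoisomerase, the proliferation antigen Ki-67, cyclins B1 and B2, a kinetochore motor and a maintenance factor of DNA methylation. Without the libraries that stood apart 16 of the list were higher in OT-I cells and 3 in OT-II cells, with medians of 1.48 in OT-I cells and 0.97 in OT-II cells.

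Top2a was at 31.9, 58.4, 42.1, 52.4 and 64.6 CPM in OT-I cells after OVA, against 14.6, 17.8, 13.6, 21.0 and 23.2 CPM after saline. The values of OT-II cells were 14.2, 16.0, 45.0 and 44.0 CPM after OVA, against 8.36, 4.41, 6.82, 6.41 and 12.9 CPM after saline. Neither pair of groups overlapped, and the OT-II OVA libraries of batch 2 were higher than those of batch 1. The ratio was 2.79 in OT-I cells (1.99 to 3.90; adjusted p = 0.00195) and 3.18 in OT-II cells (2.21 to 4.59; adjusted p = 0.004), and the interval of the log2 difference ran from -0.90 to 0.52. Mki67 was at 27.8, 61.6, 43.9, 48.0 and 67.8 CPM in OT-I cells after OVA, against 5.25, 9.47, 3.70, 23.3 and 15.2 CPM after saline. Among OT-II libraries it was at 8.26, 14.1, 47.4 and 37.9 CPM after OVA, against 5.25, 0.588, 1.53, 7.21 and 7.46 CPM after saline. Its ratios were 5.08 in OT-I cells (adjusted p = 0.00989) and 5.11 in OT-II cells (adjusted p = 0.0449), and the log2 difference of -0.01 had an interval from -1.28 to 1.27. The OT-II call of Mki67 was lost in 15 of 19 fits that left out 1 library; it was kept without OT-I OVA batch 1 replicate 2, OT-I saline batch 1 replicate 3, OT-I saline batch 2 replicate 1 or OT-II saline batch 1 replicate 1. Ccnb2 was at 24.7, 67.0, 29.9, 16.8 and 30.8 CPM in OT-I cells after OVA, against 5.22, 5.04, 4.04, 6.76 and 9.96 CPM after saline. In OT-II cells Ccnb2 was at 12.0, 9.41, 31.8 and 16.5 CPM after OVA, against 4.20, 1.31, 0.597, 1.91 and 2.15 CPM after saline, and all OVA libraries lay above all saline libraries in either cell type. The OT-II call of Ccnb2 was lost without OT-II OVA batch 1 replicate 2 and without OT-II saline batch 1 replicate 2, batch 2 replicate 1 or batch 2 replicate 2.

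The promoters of these 3 shared cell division genes are shown for the elements through which such genes are known to be controlled: the cell cycle homology region, searched as TTTGAA, and the CCAAT box bound by NF-Y. The windows, from the same RefSeq table, are chr11:99024140-99024439 on the minus strand, chr7:135716330-135716629 on the minus strand and chr9:70421505-70421804 on the minus strand. Capitals mark TTTGAA and CCAAT on either strand.
Top2a: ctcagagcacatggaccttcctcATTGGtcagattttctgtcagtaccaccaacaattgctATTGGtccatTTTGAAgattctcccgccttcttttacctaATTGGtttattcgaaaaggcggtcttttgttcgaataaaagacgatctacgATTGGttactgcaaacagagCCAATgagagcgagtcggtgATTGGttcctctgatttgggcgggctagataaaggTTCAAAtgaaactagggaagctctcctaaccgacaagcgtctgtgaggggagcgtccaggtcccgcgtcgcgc
Mki67: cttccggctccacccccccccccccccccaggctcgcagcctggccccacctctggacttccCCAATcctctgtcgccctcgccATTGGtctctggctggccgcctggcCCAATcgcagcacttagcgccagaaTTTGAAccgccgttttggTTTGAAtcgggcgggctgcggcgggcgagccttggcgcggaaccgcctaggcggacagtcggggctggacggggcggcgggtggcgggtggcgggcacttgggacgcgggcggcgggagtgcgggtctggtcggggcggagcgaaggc
Ccnb2: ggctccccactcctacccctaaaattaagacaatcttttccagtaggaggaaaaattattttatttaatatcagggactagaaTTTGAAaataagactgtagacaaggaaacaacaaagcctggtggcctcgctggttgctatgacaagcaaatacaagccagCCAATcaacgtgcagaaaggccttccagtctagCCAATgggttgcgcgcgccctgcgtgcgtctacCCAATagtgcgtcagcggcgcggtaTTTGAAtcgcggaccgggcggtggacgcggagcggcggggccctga
The Top2a window held 6 CCAAT boxes, and the Mki67 and Ccnb2 windows 3 each, and each of the 3 held the cell cycle element at 2 places. The CCAAT box was in all 6 proliferation genes called in both cell types and in 28 of the 37 proliferation genes with a promoter in the table (75.7%), where 42.9% of 11294 tested genes had it. Among all genes called in both cell types, 11 of 23 had the CCAAT box (47.8%), a share near that of all tested genes. TTTGAA was in 10 of those 23 (43.5%), in 15 of 37 proliferation genes (40.5%) and in 15.6% of all. Of the 6 proliferation genes called in both, 3 held TTTGAA, and these are the 3 shown here. Neither the CCAAT box nor TTTGAA was found in the 5 windows of genes called for the difference. These matches describe letters in the windows only.

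Genes of chemokine and cytokine receptors were also called in both cell types. Cxcr3, the receptor for the interferon-induced ligands CXCL9 and CXCL10, was at 205, 308, 306, 310 and 248 CPM in OT-I cells after OVA, against 59.0, 53.8, 59.1, 71.7 and 108 CPM after saline. In OT-II cells it was at 74.8, 64.3, 98.4 and 72.6 CPM after OVA, against 31.6, 20.3, 27.3, 16.0 and 30.3 CPM after saline. The groups did not overlap in either cell type. The ratio was 4.02 in OT-I cells (2.98 to 5.42; adjusted p = 4.44e-05) and 3.08 in OT-II cells (2.25 to 4.21; adjusted p = 0.00187), with a log2 difference of 0.39 (95% interval -0.23 to 1.00). Cxcr5, which guides cells to B cell follicles, was at 66.2, 92.7, 86.8, 89.5 and 114 CPM in OT-I cells after OVA, against 16.4, 21.5, 21.2, 71.7 and 28.1 CPM after saline. OT-II cells had 49.8, 50.7, 98.1 and 281 CPM after OVA, against 10.7, 5.20, 8.61, 37.2 and 11.0 CPM after saline. The 281, 71.7 and 37.2 CPM came from 3 of the libraries with high Cd79a, and B cells are known to express Cxcr5. The other libraries showed the same order, and the ratios over all libraries were 3.13 in OT-I cells (adjusted p = 0.0219) and 6.88 in OT-II cells (adjusted p = 0.00373). The log2 difference was -1.14 over all 19 libraries (adjusted p = 0.75) and -0.74 without the 5 that stood apart (adjusted p = 0.574). Beyond that fit, the part of B cells in the Cxcr5 values was not tested. The OT-I call was lost in 6 of 19 fits that left out 1 library: OT-I OVA batch 1 replicate 2 or batch 2 replicate 2, and any OT-I saline library but batch 2 replicate 1.

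Il2rb, the beta chain of the receptors for IL-2 and IL-15, was at 747, 1470, 1270, 1220 and 1170 CPM in OT-I cells after OVA, against 536, 546, 551, 542 and 629 CPM after saline. The OT-II libraries were at 144, 168, 258 and 395 CPM after OVA, against 100, 62.1, 78.0, 96.8 and 86.8 CPM after saline. The ratios were 2.10 in OT-I cells (1.59 to 2.77; adjusted p = 0.00504) and 2.57 in OT-II cells (1.90 to 3.47; adjusted p = 0.004), and the log2 difference was -0.29 (95% interval -0.88 to 0.29). The saline level of Il2rb in OT-I cells was above every OT-II level. P2rx7, the ATP-gated channel of T cells, averaged 22.5 ± 2.38 CPM in OT-I cells after OVA and 9.90 ± 4.12 CPM after saline (SD, n = 5 each), and 41.0 ± 13.0 CPM in OT-II cells after OVA (n = 4) and 14.3 ± 2.62 CPM after saline (n = 5). It rose in OT-I cells (log2 1.27, adjusted p = 0.00374) and in OT-II cells (1.48, adjusted p = 0.004).

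**Figure D4:**
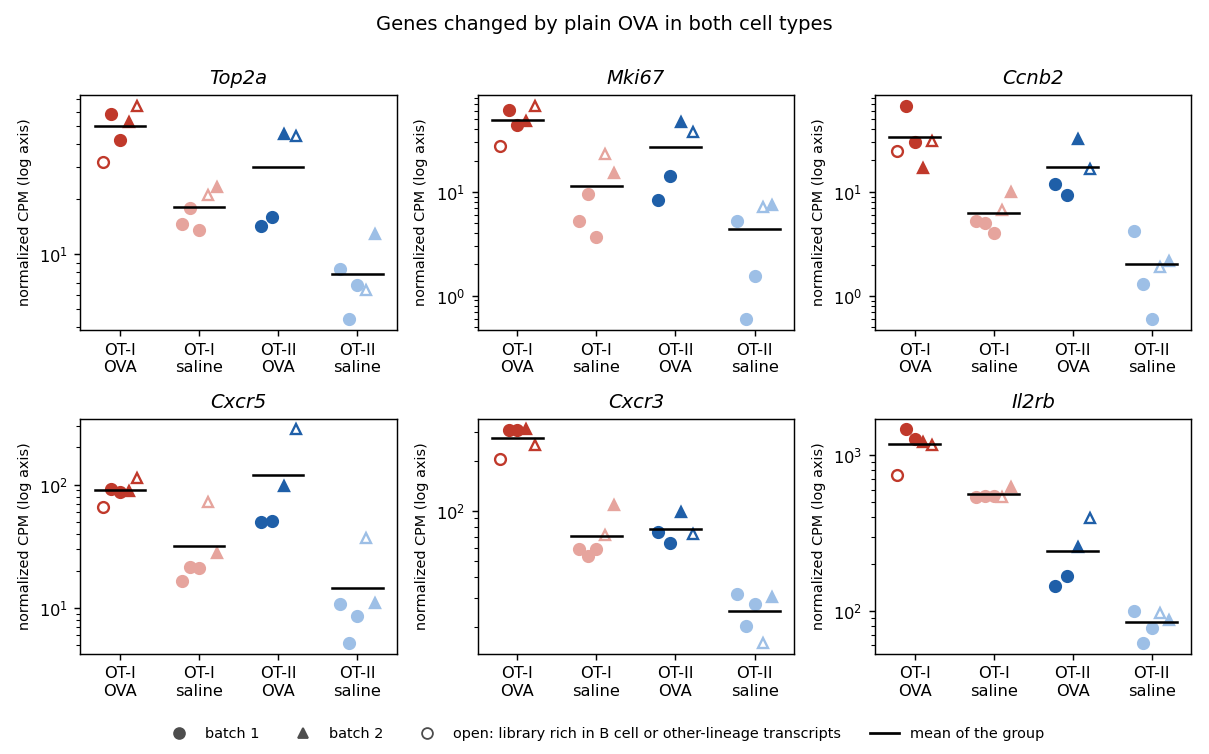
Normalized CPM on a log axis for 6 genes called in both cell types, 1 point per library, with symbols as in the plot of the genes called for the difference. OVA libraries lie above saline libraries in each panel, except for 1 OT-I saline library of Cxcr5 at 71.7 CPM, which is above the lowest OT-I OVA library at 66.2 CPM.

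Other genes with strong calls rose in both cell types as well. Gimap7, a GTPase of the immunity-associated family, averaged 354 ± 48.9 CPM in OT-I cells after OVA and 183 ± 17.8 CPM after saline (SD, n = 5 each), and 131 ± 4.53 CPM in OT-II cells after OVA (n = 4) and 75.7 ± 9.43 CPM after saline (n = 5). Its ratio was 1.94 in OT-I cells and 1.75 in OT-II cells, and its log2 difference of 0.15 had an interval from -0.16 to 0.45. Lrmp, Prr13 and Gng2, the last a G protein gamma subunit, had log2 fold changes of 0.69, 0.91 and 0.90 in OT-I cells and of 0.78, 0.85 and 1.07 in OT-II cells. Jdp2, which encodes a repressor of AP-1 activity, rose by 2.75 in OT-I cells and by 2.52 in OT-II cells. Gm5157 rose by 2.56 in OT-I cells and by 3.79 in OT-II cells, at 1.51 CPM or less on average in either OT-II group. Samd3 rose in both, but in OT-II OVA libraries it was at 2.36, 3.18 and 4.04 CPM beside 18.8 CPM in batch 2 replicate 2. The OT-II call of Samd3 was lost without that library, without OT-II OVA batch 1 replicate 2 or 3 and without OT-II saline batch 2 replicate 1 or 2. Of the 31 shared genes 30 were higher after OVA, and the lower 1 was Enpp4. The median half-width of the 95% interval of their log2 differences was 0.65, without adjustment for the number of genes. A difference of that size in a typical shared gene would not have passed the adjusted threshold. Being called in both cell types thus does not mean an equal response.

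Few genes fell, and most falls were called in OT-I cells. The 106 genes called lower in OT-I cells leaned downward in OT-II cells as well. Their median log2 fold change was -0.56 in OT-I cells, where they were chosen, and -0.23 in OT-II cells. In OT-II cells 14 of them were positive, where 7317 of all 14472 tested genes were, and 45 had an unadjusted p under 0.05, against 1501 of all. The IL-7 receptor gene Il7r, which sustains naive cells, was at 188, 254, 261, 315 and 278 CPM in OT-I cells after OVA, against 428, 444, 440, 359 and 393 CPM after saline. Levels in OT-II cells were 212, 217, 164 and 142 CPM after OVA, against 248, 264, 277, 238 and 270 CPM after saline. No groups overlapped in either cell type, and the log2 fold change was -0.68 in OT-I cells (adjusted p = 0.00495) and -0.49 in OT-II cells (adjusted p = 0.12). Bcl2, the survival gene downstream of IL-7, was at 185, 149, 188, 137 and 139 CPM in OT-I cells after OVA, against 260, 299, 320, 192 and 205 CPM after saline. The values of OT-II cells were 124, 133, 88.4 and 132 CPM after OVA, against 119, 140, 129, 102 and 83.7 CPM after saline. The OT-I groups were apart and the OT-II groups overlapped, with log2 fold changes of -0.66 (adjusted p = 0.00374) and 0.11 (adjusted p = 0.818). Its difference of -0.77 (95% interval -1.11 to -0.42) had an adjusted p of 0.179. The gut-homing receptor gene Ccr9 and the interferon gamma receptor gene Ifngr2 fell in OT-I cells by 0.99 and 0.85 on the log2 scale. Myc and Fosl2, of the early response to the antigen receptor, fell in OT-I cells by 0.49 and 0.69, calls that were lost in 6 of 19 fits without 1 library for Myc and in 7 for Fosl2. In OT-II cells the log2 values of Ccr9, Ifngr2, Myc and Fosl2 were -0.24, -0.31, -0.23 and -0.49, none of them called. No difference of responses was called for these genes, and all OVA libraries of Fosl2 lay below all saline libraries in either cell type. In the list of 24 naive and memory genes 4 were higher and 4 lower in OT-I cells, and 1 was higher and 1 lower in OT-II cells. Tcf7 (TCF-1), a marker of naive cells, had a log2 value of 0.07 in OT-I cells and of -0.23 in OT-II cells, neither called. Tcf7 was at 2640, 2520 and 2380 CPM in OT-II OVA libraries beside 737 CPM in batch 2 replicate 2.

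Genes called in OT-II cells and not in OT-I cells were few, and none of these 21 was called for the difference. Dusp6, a phosphatase that limits ERK signalling, was at 67.9, 65.6, 85.0 and 119 CPM in OT-II cells after OVA, against 43.5, 41.1, 28.8, 60.0 and 55.9 CPM after saline, and its log2 fold change was 0.82 (adjusted p = 0.00373), beside 0.36 in OT-I cells (adjusted p = 0.0908). Klf2, named after its values were seen, encodes a factor of naive cell circulation and fell in OT-II cells by 0.43 (adjusted p = 0.0493), beside -0.30 in OT-I cells (adjusted p = 0.0654). Foxp3, the factor of regulatory T cells, was at 20.4, 18.0, 18.7 and 37.5 CPM in OT-II cells after OVA, against 22.5, 12.2, 17.0, 18.6 and 24.1 CPM after saline, and was not called (adjusted p = 0.927).

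Other lists held few calls. Among 29 type I interferon-stimulated genes 2 were higher in OT-I cells (Ifi27l2a and Ly6a) and none changed in OT-II cells, with medians of 0.16 in OT-I cells and 0.04 in OT-II cells. The Ly6a call was lost in 12 of 19 fits that left out 1 library (adjusted p up to 0.142). Among 16 interferon gamma-inducible GTPases 2 were lower in OT-I cells, Tgtp1 and Tgtp2, near-identical genes whose reads may be split unevenly. Of 27 oxidative phosphorylation genes none was called in either cell type, with medians of 0.16 and -0.02. Of 23 glycolysis and nutrient transport genes Pfkp was higher in OT-I cells, and of 29 genes of cholesterol and fatty acid synthesis Scd2 was higher in both cell types, though its OT-II call was lost in 10 of 19 fits that left out 1 library (adjusted p up to 0.114) and without the libraries that stood apart. In the apoptosis and survival list of 24 genes, 6 were higher and 1 lower in OT-I cells and 1 was higher in OT-II cells; Bcl2a1b and Bcl2a1d are near-identical copies. The T follicular helper list of 19 genes had 6 higher in OT-I cells and 2 in OT-II cells, Cxcr5 and P2rx7.

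Homing and adhesion genes had 8 of 33 higher (among them Cd44, Cxcr3, Cxcr5, Itga4, Itgal, Itgb1 and St3gal6) and 1 lower (Ccr9) in OT-I cells, and 2 higher in OT-II cells (Cxcr3 and Cxcr5). Itgal encodes the alpha chain of the integrin LFA-1. Effector transcription factors had 5 of 21 higher in OT-I cells (Hopx, Id3, Ikzf3, Tbx21 and Zbtb32) and 1 in OT-II cells (Eomes), and without the libraries that stood apart 11 and 2. The anergy list had 4 of 19 higher in OT-I cells, Cblb, Izumo1r, Nrp1 and Rgs1, and none called in OT-II cells. Izumo1r, the folate receptor 4 gene of regulatory and anergic CD4 cells, rose in OT-I cells by 2.68 on the log2 scale, and its difference of 1.77 was not called (adjusted p = 0.281). Regulatory T cell genes had 3 of 18 higher in OT-I cells, T cell cytokines 3 of 17, TNF family costimulation 1 of 19 and CD4 lineage genes 1 of 8, with none called in OT-II cells. Without the libraries that stood apart, 1 gene each of the anergy, regulatory T cell and CD4 lineage lists was higher in OT-II cells, and 4 of the T follicular helper list. T helper 1 genes had 4 of 14 higher in OT-I cells and 1 in OT-II cells, T helper 2 genes none of 7 in either, and T helper 17 genes none of 8 in OT-I cells and 1 in OT-II cells, Il23r, which had no count in any OT-II saline library and whose OT-II call was lost in 14 of 19 fits that left out 1 library. Early response genes of the antigen receptor had 2 of 27 lower in OT-I cells and 1 higher in OT-II cells, and cytokine receptors had 1 of 26 higher and 2 lower in OT-I cells and 1 higher in OT-II cells. Among heat shock and sorting stress genes, 1 of 17 was lower in OT-I cells, the chaperone gene Dnaja1, whose call was lost in 15 of 19 fits that left out 1 library (adjusted p up to 0.166). None of 13 mitochondrially encoded, 7 CD8 lineage, 11 erythroid and platelet or 7 stroma genes was called in either cell type by edgeR over the 19 libraries, and without those that stood apart 1 CD8 lineage gene was lower in OT-I cells.

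Lists of other cell types moved with the libraries that stood apart. None of 18 B cell markers was called over the 19 libraries in OT-I cells, in OT-II cells or for the difference, but their median log2 fold change was -1.01 in OT-I cells and 1.28 in OT-II cells, and -0.52 and -0.11 without the 5 libraries. For 21 myeloid markers the medians were -0.69 and 0.69, and -0.23 in both cell types without the 5 libraries. For 13 NK cell markers they were -0.38 and 1.27, and -0.30 and -0.31 without them. The defining markers Cd79a and Ms4a1 were above 0 in every library, with lowest levels of 5.96 and 2.87 CPM. For 21 killer lectin-like receptors the medians were -0.61 in OT-I cells and 1.2 in OT-II cells, and -0.10 and -0.37 without the 5 libraries, so the direction of these lists in OT-II cells rested on those libraries. Without the 5 libraries 1 B cell marker, 2 NK cell markers and 2 killer lectin-like receptors were higher in OT-I cells. The part of such transcripts in the other results was not tested, beyond the fits without these libraries.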

How the data were processed

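The deposited tables hold estimated counts per protein-coding gene, made by the authors with kallisto 0.46.1 on GRCm38 per the submitters' processing notes, from SmartSeq v4 and Nextera libraries per the labels' protocols. Each table held 21900 genes, and all rows had a gene ID. The estimated counts of 19 libraries were rounded to whole numbers and filtered with filterByExpr over the 4 groups, which left 14472 genes. Counts were scaled by TMM, and CPM values are counts over the scaled library totals. They were fitted in edgeR 4.0.16 (R 4.3.3; robust quasi-likelihood) with an intercept for each batch within each cell type and an OVA effect per cell type. The difference of responses is the OT-I effect minus the OT-II effect. Benjamini-Hochberg adjustment ran over all tested genes at a threshold of 0.05. DESeq2 1.42.0 and limma 3.58.1 (voom) served as alternatives, with other filters, blocks, batches and left-out libraries. Columns of 10 pGal libraries entered 1 alternative only.

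The members, the 33 gene lists and the tests were chosen with earlier results of these data known. Named genes were the calls for the difference with a group mean of at least 10 CPM, the 10 strongest shared calls, the OT-II calls with the highest fold changes, members of a preset panel and list genes with the strongest calls; others are said to be chosen after their values were seen. Each library came from 3 pooled mice, so p-values measure the spread between these libraries. The labels do not say whether OT-I and OT-II libraries share pools, and the estimated counts were made without molecular identifiers. No 2 libraries of a group agreed more closely than a Spearman correlation of 0.9903. Replicate numbers were not taken to pair libraries. Deviations of same-numbered OVA and saline libraries correlated at -0.39 to 0.20, over 0.1 in 2 of 9 pairs. Those of OT-I and OT-II libraries correlated at -0.20 to 0.50, over 0.1 in 7 of 9. In batch 2 each group had 2 libraries, whose deviations mirror each other, so replicates 1 and 2 gave the same correlation. The pairs are therefore not independent, and no differently numbered pairs are given for comparison, so these counts cannot decide whether numbers pair libraries. Results for a few genes are not reported here.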

Additional observations from a re-analysis of the deposited data

Results flagged for a closer look

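The responses of Itgb1, Nrp1, Itga4, Ptms, Lag3 and Tmem154 were flagged because the OVA effects in the 2 cell types were apart by the test of their difference. Their log2 differences were 2.208 for Itgb1, 3.246 for Nrp1, 1.494 for Itga4, 2.276 for Ptms, 2.775 for Lag3 and 1.263 for Tmem154.

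The other flags were single libraries far from the rest of their group. Dixon's test flagged 32 of 160 groups. For independent, normally distributed values it flags about 1 in 20, which these CPM values need not be. Most flags fell on libraries that stood apart. Those libraries were chosen by Cd79a, Cd4 and Cd8a, so their flags for these genes follow in part from that choice.

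OT-II OVA batch 2 replicate 2 was flagged for several genes at once. It had 1360 CPM of Cd79a (18.7 to 25.4 CPM in the other OT-II OVA libraries), 115 CPM of Cd8a (1.06 to 2.06) and 737 CPM of Tcf7 (2380 to 2640). Effector genes were high in it, with 71.9 CPM of Tbx21 (15.6 to 16.6), 33.7 CPM of Gzmb (0.792 to 2.31), 18.8 CPM of Samd3 (2.36 to 4.04) and 7.52 CPM of Zbtb32 (2.88 to 3.52). Foxp3 was at 37.5 CPM (18.0 to 20.4) and Tmem154 at 74.4 CPM (98.5 to 102).

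OT-I saline batch 2 replicate 1 had 314 CPM of Cd79a, where the other libraries of its group had 9.18 to 31.2 CPM, and 39.9 CPM of Cd4 (1.09 to 2.87). It also had 863 CPM of Cd8a (1060 to 1130), 71.7 CPM of Cxcr5 (16.4 to 28.1), 13.2 CPM of Nrp1 (2.93 to 5.78), 9.74 CPM of Foxp3 (0.485 to 2.59) and 1.96 CPM of Wnt10a (at most 0.506). OT-II saline batch 2 replicate 1 had 165 CPM of Cd79a, where the others had 16.6 to 39.3 CPM, 37.2 CPM of Cxcr5 (5.20 to 11.0), 3.15 CPM of Wnt10a (0.801 to 1.11) and 0.304 CPM of Gm5157 (0.0607 to 0.0764).

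OT-I OVA batch 1 replicate 1 had 162 CPM of Cd4 (0.343 to 7.41 in the others) and 777 CPM of Cd8a (1110 to 1140). OT-I OVA batch 2 replicate 2 had 100 CPM of Cd79a (5.96 to 12.4) and 1410 CPM of Tcf7 (1750 to 1880).

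OT-I OVA batch 1 replicate 2, which did not stand apart by Cd79a, Cd4 or Cd8a, had 143 CPM of Gzmb (34.7 to 54.3 in the others), 89.1 CPM of Samd3 (43.8 to 55.7) and 67.0 CPM of Ccnb2 (16.8 to 30.8). The summed level of 13 NK cell markers was 411 CPM in that library (161 to 242 CPM in the others of its group). Its level of the NK cell gene Ncr1, 0.749 CPM, was the lowest of the group. The part of NK cells in its values was not tested. OT-I saline batch 2 replicate 2 had 629 CPM of Il2rb (536 to 551) and 3.07 CPM of Gzmk (0.59 to 0.962), and OT-I saline batch 1 replicate 3 had 0.751 CPM of Gm5157 (1.13 to 1.24). OT-II OVA batch 2 replicate 1 had 60.2 CPM of P2rx7 (33.0 to 37.4), and OT-II saline batch 2 replicate 2 had 1.55 CPM of Il2 (0.193 to 0.554).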

How the results depend on the processing

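No log2 value of a named gene changed sign while called. With DESeq2, 54 genes were called for the difference, 923 in OT-I cells, 317 in OT-II cells (76% of them higher after OVA, against 86.5% with edgeR), 1198 for the mean response and 150 in both cell types; 45 were called in OT-I cells and for the difference, and 4 in OT-II cells and for the difference. Without the 5 libraries that stood apart, 15 genes were called for the difference, 14 of them also in OT-I cells and 1 also in OT-II cells. Batch 1 alone gave 12 genes in OT-II cells, 381 for the mean response, 9 in both cell types and 1 in OT-II cells and for the difference. Batch 2 alone, fitted with edgeR, gave 0 for the difference (639 at an unadjusted p under 0.05), 1 in OT-I cells, 0 in OT-II cells (1099), 2 for the mean response, and 0 both in the 2 cell types together and in OT-I cells with the difference. Fitting the cell types separately, chosen after seeing the data, gave 808 genes in OT-I cells, 3 in OT-II cells and 3 in both. The causes were not tested, except that single batches and left-out libraries leave fewer samples.

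With a replicate block of number within batch, 3 genes were called for the difference, all 3 also in OT-I cells, and 34 in OT-II cells. With a replicate block of mouse pool, 3 were called for the difference. The numbers were not shown to pair the libraries.

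Leaving out 1 library in turn gave 3 to 13 genes for the difference, 191 to 640 in OT-I cells, 23 to 111 in OT-II cells, 445 to 731 for the mean response and 18 to 66 in both cell types. It gave 3 to 12 genes in OT-I cells and for the difference, and 0 to 1 in OT-II cells and for the difference. The difference count fell to 3 without OT-I OVA batch 1 replicate 2 or 3, OT-I saline batch 1 replicate 1 or OT-II OVA batch 1 replicate 3. The median half-width of the 95% interval of a log2 difference was 0.596 over all tested genes, which limits what these libraries could show.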

Other observations

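Il23r, which encodes a subunit of the IL-23 receptor, was the gene with the lower response in OT-I cells when the libraries that stood apart were left out. It was at 0.834, 1.19, 0.649, 0.679 and 1.12 CPM in OT-I cells after OVA, against 2.99, 1.74, 2.84, 1.69 and 5.60 CPM after saline. In OT-II cells it was at 0.586, 0.234, 0 and 0.974 CPM after OVA, and at 0 in all 5 saline libraries, where 3 counts would have given 0.049 to 0.091 CPM. The OT-II response was called over all 19 libraries and lost in 14 of 19 fits that left out 1 library (adjusted p up to 0.0919). The OT-I saline libraries were thus the highest and the OT-II saline libraries held no count. Its difference had an adjusted p of 0.0961 over all 19 libraries and 0.035 without the 5 libraries by edgeR's quasi-likelihood test, and no fold is given because of the zeros.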
